A study of Mus musculus with 2 samples.

Results

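Committed preadipocytes with lipid genes were examined in mouse subcutaneous white fat, in 1 droplet library of Paqr4 transgenic mice and 1 library of WT mice. A cell belonged to this population when it held a UMI (unique molecular identifier, 1 counted RNA molecule) of Pdgfra and when, of 6 scores of 4 marker genes each, the score of Cxcl14, G0s2, Plin2 and Pparg was the highest and at least 0.5. The rule gave 352 of the 2483 Pdgfra-positive cells, namely 220 of 1347 in the transgenic library and 132 of 1136 in the WT library. The members were thus chosen by the measured marker values of these same cells, so what sets them apart from the other Pdgfra-positive cells is described below without a test.

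The stromal vascular fraction is what remains of fat after the adipocytes are removed, and CD45-negative cells of it, sorted by flow cytometry, were pooled from 3 mice. Whether 3 mice stood behind each library or behind both, and which promoter drives the transgene, was not stated in the sources used here. The study asked how Paqr4, a membrane protein of the progestin and adipoQ receptor family that has been linked to ceramide metabolism, bears on the pool of adipose progenitors. Each genotype had 1 library and so no replicate: no difference between genotypes could be tested, and every interval given is a 95% interval for counting error only.

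White fat keeps stromal progenitors that carry Pdgfra and can become adipocytes. Interstitial progenitors with Dpp4 and Pi16 give rise to committed preadipocytes, which switch on Pparg, the nuclear receptor that drives fat cell formation, and begin to make proteins of lipid handling. Plin2 coats small lipid droplets, G0s2 inhibits the lipase that breaks down stored triglyceride, and Cxcl14 is a secreted chemokine. Mature adipocytes float and are lost when the tissue is digested.

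The libraries differed in sex as well as in genotype. Levels are given as UPM, the UMIs of a gene per 1000000 UMIs summed over the cells. Xist, which is transcribed from the inactive X of females, stood at 0.233 UPM in transgenic members and at 990.0 UPM in WT members. The Y-linked helicase gene Ddx3y stood at 101 UPM in transgenic and 1.07 UPM in WT members, so genotype and sex cannot be told apart in any comparison below. Members held a median of 19346.5 UMIs in the transgenic library and 21259 in the WT library, and the libraries shared 0 cell barcodes. Paqr4 itself had 58 UMIs in transgenic and 33 UMIs in WT members, or 13.5 and 11.8 UPM, a log2 ratio of transgenic over WT of 0.20 (−0.44 to 0.86). It was thus counted at like levels under both labels, and what share of the transgene's transcripts a 3′ count of this gene would catch was not tested. An added eGFP sequence had 0 UMIs in members of either library.

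Members made up 16.3% of Pdgfra-positive cells in the transgenic library (14.4 to 18.4, Clopper-Pearson) and 11.6% in the WT library (9.81 to 13.6). The ratio of the shares was 1.41 (1.15 to 1.72, normal approximation on the log scale). Among the cells of the other scores, those of Dpp4 and Pi16 took 15.0% in the transgenic library and 23.2% in the WT library. Because the scores were standardised over both libraries together, a gene that differs between the libraries can move cells over the threshold. With the scores standardised within each library the shares of members were 14.7% in transgenic and 13.2% in WT, a ratio of 1.11. That setting gives each score gene the same mean and spread in both libraries, so it can also take away a true difference in shares. Which of the ratios is nearer to the make-up of the tissue was not tested.

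**Figure D1:**
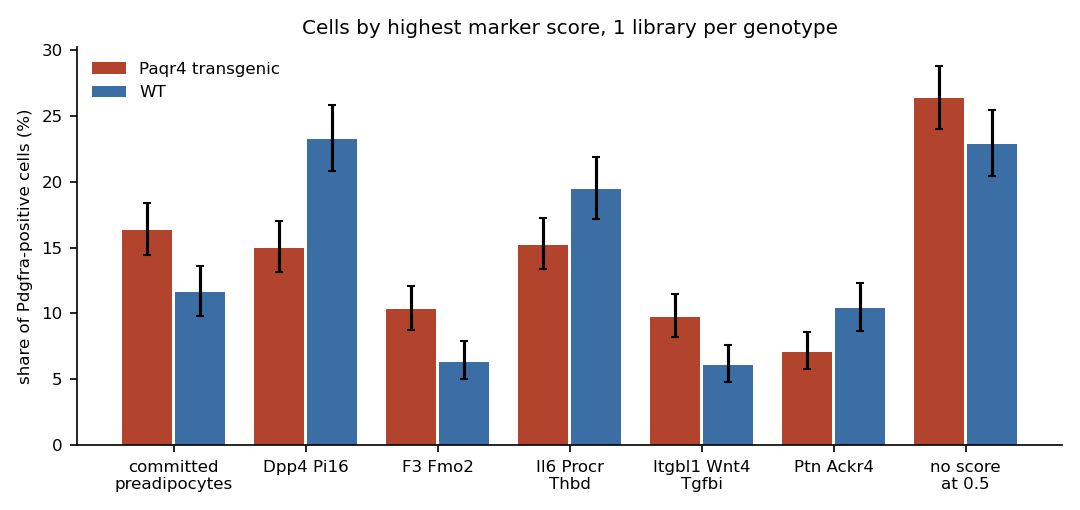
Bars show the share (%) of Pdgfra-positive cells by highest marker score in the Paqr4 transgenic library (left bar of each pair) and the WT library (right bar), with 95% Clopper-Pearson intervals. Committed preadipocytes stand at 16.3% in the transgenic library and 11.6% in the WT library.

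The 4 markers did not mark the members evenly. G0s2 had a UMI in 92.7% of transgenic and 92.4% of WT members, and Plin2 in 89.5% of transgenic and 81.1% of WT members. Pparg had one in 57.3% of transgenic and 68.2% of WT members, and Cxcl14 in 45.0% of transgenic and 35.6% of WT members. All 4 are genes of the score, so these shares follow from the rule, and Cxcl14 was seen in fewer than 1 member in 2. Among the other Pdgfra-positive cells G0s2 had a UMI in 45.9% of transgenic and 48.4% of WT cells, and Plin2 in 43.9% and 44.2%. Pparg had one in 10.7% of the other transgenic and 18.1% of the other WT cells, and Cxcl14 in 5.77% and 3.39%. In endothelial cells, which should lack Cxcl14 and G0s2, Cxcl14 had a UMI in 0 of 75 transgenic and 0 of 93 WT cells, which allows shares of up to 4.80% and 3.89%. G0s2 had one there in 3 of 75 transgenic and 2 of 93 WT cells, at median depths of 7989 and 9882 UMIs. Plin2 and Pparg had UMIs in 48.0% and 65.3% of transgenic and in 40.9% and 47.3% of WT endothelial cells, which express both genes, so they give no background.

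All 4 markers together were seen in 43 transgenic and 12 WT members, 3 of them in 105 and 80, 2 of them in 67 and 38, and 1 in 5 and 2. The median score was 1.12 in transgenic members and 1.07 in WT members. Near the threshold, 20 transgenic and 13 WT members scored between 0.5 and 0.6, and 21 transgenic and 17 WT cells scored between 0.4 and 0.5. The members just inside had Plin2 at 197 UPM in the transgenic and 127 UPM in the WT library, and G0s2 at 324 and 336 UPM. The cells just outside had Plin2 at 148 UPM in the transgenic and 134 UPM in the WT library, and G0s2 at 224 and 142 UPM. Both are genes of the score, so these values only describe where the threshold lies. A second score of at least 0.5 was present in 38 transgenic (17.3%) and 25 WT members (18.9%).

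Summed over members, Cxcl14 stood at 324 UPM in the transgenic and 330.0 UPM in the WT library, against 12.2 and 4.30 UPM in the other Pdgfra-positive cells. G0s2 stood at 425 UPM in transgenic and 349 UPM in WT members, against 70.1 and 54.7 UPM in the others. Pparg, at 88.0 UPM in transgenic and 95.001 UPM in WT members against 9.79 and 13.1 UPM in the others, differed by log2 3.17 in the transgenic and 2.85 in the WT library. These values are what the rule selected. Between the genotypes, the log2 ratios in members were −0.03 for Cxcl14, 0.29 for G0s2, 0.40 for Plin2 (0.27 to 0.54) and −0.11 for Pparg. None of the 4 reached 1.5-fold, the size used below to call a difference.

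All genes were then compared between members and the other cells. Across both libraries, 168 of 3566 genes at 50 UPM or more (4.71%) were 1.5-fold or more higher in members than in the other Pdgfra-positive cells, and 188 (5.27%) were lower. These counts include genes of the scores, and the shares describe the selection and carry no test. Fgf10, a growth factor that promotes adipogenesis, stood at 75.4 UPM in transgenic and 104 UPM in WT members, against 14.7 and 35.3 UPM in the other cells. Hsd11b1, the enzyme that regenerates active glucocorticoid within fat, stood at 260.3 UPM in transgenic and 175 UPM in WT members, against 92.9 and 54.6 UPM. Pappa, a protease that frees insulin-like growth factor from its binding proteins, stood at 209.9 and 355 UPM, against 54.8 and 78.9 UPM in the others. A higher level in both libraries is how these genes were chosen.

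The other genes highest in members were Adap2, Adam23, Ogfrl1, Spry4, Trf, P2ry1, Dchs2, Spon1, Sept4, Vtn, Csgalnact1, Lifr and Col4a4. Spon1, a secreted matrix protein, differed by log2 1.67 in the transgenic and 2.36 in the WT library. Lifr, the receptor of leukaemia inhibitory factor, differed by 1.52 in the transgenic and 1.72 in the WT library. The rule also selects against Dpp4 and Pi16, since the score they belong to must lie below that of the members. Pi16, a marker of interstitial progenitors, stood at 9.10 UPM in transgenic and 16.1 UPM in WT members, against 259 and 358 UPM in the others. Dpp4 stood at 6.30 UPM in transgenic and 21.1 UPM in WT members, against 77.5 and 142 UPM. Plcxd3, Gpr39, Cmah, Sema3d, Limch1, Sema3e, Efhd1, Opcml, Piezo2 and Car8 were also among the 12 lowest.

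**Figure D2:**
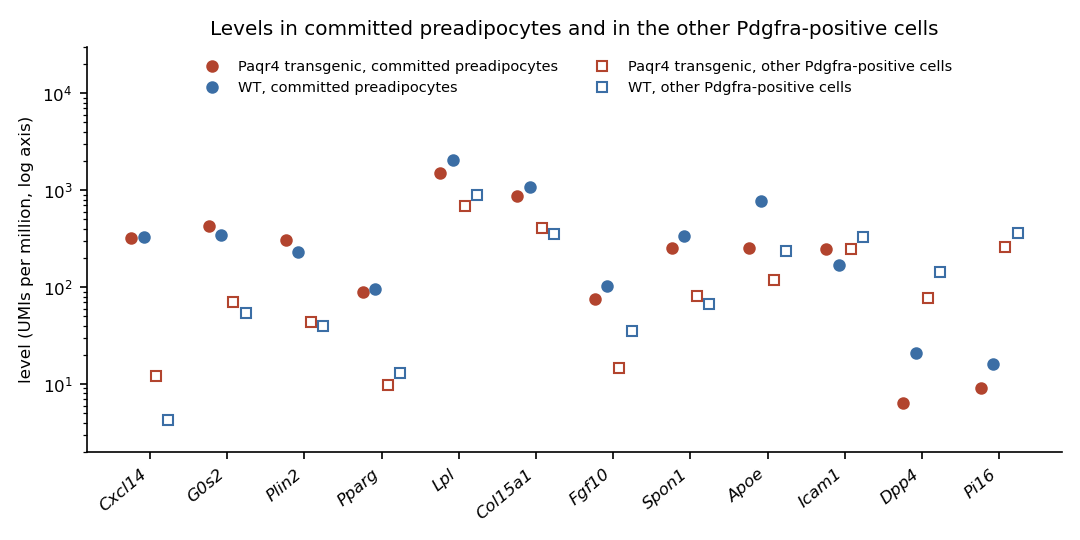
Levels (UPM, log axis) of 12 genes in committed preadipocytes (filled circles) and in the other Pdgfra-positive cells (open squares) of the Paqr4 transgenic and the WT library. The 4 score genes lie higher in members of both libraries, Dpp4 and Pi16 lie lower, and Icam1 stands at 248 and 168 UPM in members against 247 and 329 UPM in the others.

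Against listed markers of committed preadipocytes that are not genes of the score, the label held in part. The list was chosen with earlier results of these data known, so the counts describe the members and do not test the label. Of 11 listed genes at 10 UPM or more, 6 were 1.5-fold or more higher in members of both libraries, against 5.17% of 9447 genes, and 0 were lower, against 4.16%. Lpl, the lipase that frees fatty acids from blood lipoproteins, stood at 1489 UPM in transgenic and 2057 UPM in WT members, against 684 and 901 UPM in the others. Col15a1 stood at 865 UPM in transgenic and 1080.0 UPM in WT members, against 408 and 354 UPM, and Col4a1, Col4a2, Fabp4 and Apoe were higher too. Fabp4, at 94.6 UPM in transgenic and 96.4 UPM in WT members, is weak ground: barcodes with at most 50 UMIs held 495 and 300.4 UPM of it, endothelial cells 11167 and 7877 UPM, and 5 cells held 70.4% of its UMIs in WT members. Icam1, often used to name these cells, was not: it differed by log2 0.01 in the transgenic and −0.97 in the WT library. Dlk1, a preadipocyte factor that restrains adipogenesis, had a UMI in 0.455% of transgenic and 1.52% of WT members.

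Basement membrane, the sheet of laminin and type IV collagen that wraps each adipocyte, was the next list. Of its 18 genes, 8 were higher in members of both libraries and 0 lower, where 5.17% of all genes were higher and 4.16% lower. Col4a3 and Col4a4, which encode chains of one type IV collagen network, differed by 1.43 and 1.51 in the transgenic and by 1.71 and 1.54 in the WT library. Col4a1, Col4a2, Col15a1, Nid2, Hspg2 and Smoc2 made up the rest. Of 10 genes of interstitial progenitors 9 were lower in both libraries, against 4.16% of all genes; the list holds Dpp4, Pi16, Cd55 and Sema3c, the 4 genes of a score that the rule used.

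Genes of lipid droplets and lipid uptake were among those higher in members, and most genes of the mature adipocyte were close to absent. Of 16 genes of lipid uptake, 4 were higher in both libraries and 1 was lower, where 5.17% of all genes were higher and 4.16% lower. Of 21 genes of lipid storage and lipolysis, 6 were higher in both libraries, 2 of them the score genes Plin2 and G0s2, and 3 were lower. Hilpda, a droplet protein that inhibits lipolysis, stood at 19.8 UPM in transgenic and 13.2 UPM in WT members, against 9.47 and 7.11 UPM. Lipe, which encodes hormone-sensitive lipase, stood at 13.3 and 9.29 UPM, against 6.49 and 5.62 UPM in the others. Lipe was the 1 gene of 12 of the mature adipocyte that reached 10 UPM. Car3, another of the 12, stood at 17.1 UPM in transgenic and 1.64 UPM in WT members without a Cxcl14 UMI. In members with one it stood at 0.515 and 0 UPM. Adipoq, Plin1, Cidec, Lep, Retn and Adrb3 had 0 UMIs in members of both libraries; for Adipoq this allows up to 1.66% of transgenic and 2.76% of WT members with a UMI.

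Of 22 adipogenic factors, 5 were higher in members of both libraries, 1 of them the score gene Pparg, against 5.17% of all genes. Zfp423 was lower, and 1 of 22 is near the 4.16% of all genes. Besides Pparg the higher ones were Cebpa, its partner in terminal differentiation, Klf15, Zfp467 and Nr1h3, the nuclear receptor of oxysterols. Cebpa stood at 13.3 UPM in transgenic and 12.9 UPM in WT members, against 6.58 and 7.62 UPM in the others. Factors of the early programme differed less, as with Cebpd at 1472 and 1817 UPM against 1161 and 1541 UPM. Ebf1, a factor of the whole lineage, stood at 3068 and 3218 UPM in members against 3380.0 and 3110.3 UPM in the others. Paqr4 stood above the other cells, which had 8.50 UPM in the transgenic and 7.49 UPM in the WT library, by log2 0.67 and 0.65.

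Other cell types were little represented. The 5 epithelial markers had 0 UMIs in members of both libraries. The 8 immune markers summed to 4.44 UPM in transgenic and 8.57 UPM in WT members, with Ptprc and Cd52 at 0 in both. Of the endothelial list, 1 of 8 genes (Eng, 119 UPM in transgenic and 113 UPM in WT members) reached 10 UPM, and Cdh5, Tie1 and Egfl7 were at 0 in transgenic members. Of the 8 genes of pericytes and smooth muscle, 3 reached 10 UPM. All 8 summed to 38.8 UPM in transgenic and 87.5 UPM in WT members, against 28.9 and 37.4 UPM in the others. Of the 3, 2 were 1.5-fold or more higher in members of both libraries, against 5.17% of all genes. Abcc9 stood at 0 UPM in transgenic and 20.4 UPM in WT members, where 5 cells held 100% of its UMIs. The 5 Schwann markers stayed under 10 UPM, and of the mesothelial list Wt1 alone passed it, at 316 UPM in transgenic and 301 UPM in WT members.

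Between genotypes, 155 of 3897 genes at 50 UPM or more (3.98%) were 1.5-fold or more higher in transgenic than in WT members, and 145 (3.72%) were lower, 300 in all (7.7%), with a median log2 ratio of 0.01 over all 3897. These counts are sizes without a replicate, and intervals leave out the variation between cells. The genes named next are from the 12 highest and 12 lowest ratios among genes with under 50% of their UMIs in 5 cells of the higher library. Each gene named kept its direction and stayed at 1.5-fold or more under each of 11 other settings.

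**Figure D3:**
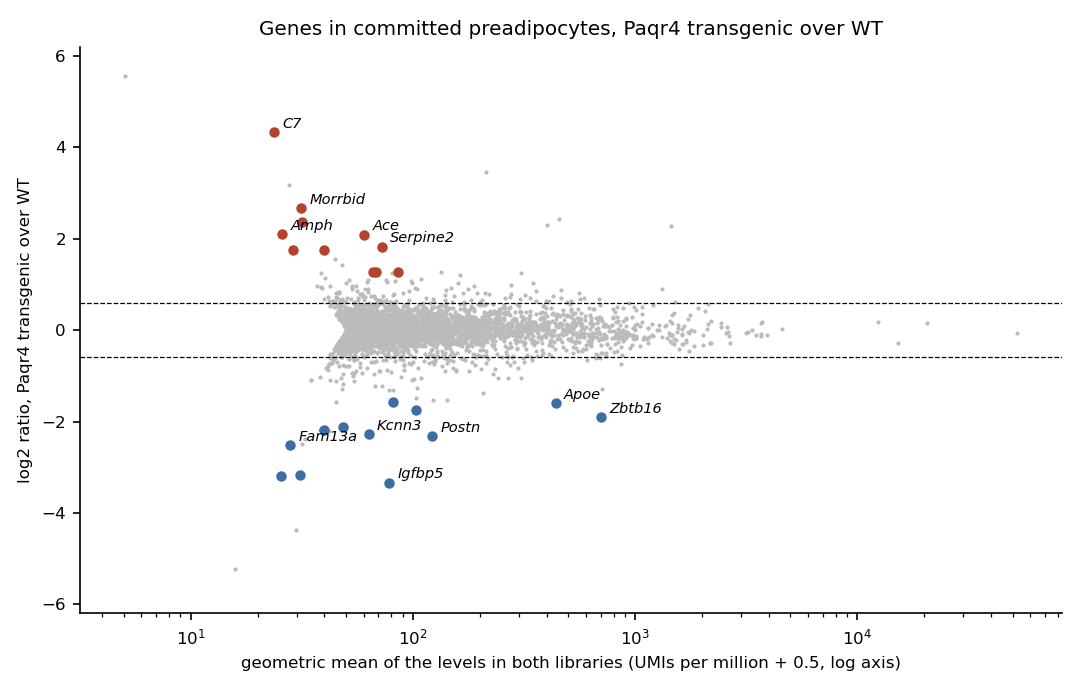
Each grey point is 1 of the 3897 genes at 50 UPM or more in committed preadipocytes, with the geometric mean of its levels in both libraries on the horizontal axis (UPM + 0.5, log axis) and the log2 ratio of Paqr4 transgenic over WT on the vertical axis; dashed lines mark 1.5-fold. The named genes with the highest (red) and lowest (blue) ratios are coloured and some of them labelled; grey points outside them include haemoglobin genes, Igfbp3, Lsamp and Sult1e1 (drawn at its bound, 5.57), which the naming rule left out, and the sex-linked Xist, Ddx3y and Uty lie beyond the vertical axis. C7 stands at 4.34 and Igfbp5 at −3.34.

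The highest ratio among the genes that passed the naming rule was that of C7, a terminal component of complement. Sult1e1, an estrogen sulfotransferase that the rule left out because 5 cells held 70.6% of its UMIs, stood at 50.9 UPM in transgenic members with 0 UMIs in WT members, at least 47.5-fold higher against a floor of 3 UMIs in the WT library. C7 stood at 102 UPM in transgenic and 5.00 UPM in WT members, a log2 ratio of 4.34 (3.58 to 5.23), with a UMI in 39.1% of transgenic and 3.79% of WT members. The other Pdgfra-positive cells held 401 UPM of C7 in the transgenic and 59.5 UPM in the WT library, a ratio of 2.75. C7 lies on chromosome 15 of GRCm38 (GENCODE M21).

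Serpine2, an inhibitor of thrombin and plasminogen activators, stood at 136 UPM in transgenic and 38.2 UPM in WT members (log2 1.83, 1.53 to 2.14). It had a UMI in 75.9% of transgenic and 34.8% of WT members. Ace, which makes angiotensin II, stood at 123 UPM in transgenic and 28.9 UPM in WT members (2.09, 1.75 to 2.45). Both were spread over many cells, with 9.97% and 8.88% of their transgenic UMIs in 5 cells. S1pr3, a receptor for the ceramide product sphingosine 1-phosphate, stood at 52.1 UPM in transgenic and 15.4 UPM in WT members (1.76, 1.29 to 2.27). In the other Pdgfra-positive cells the ratio was 2.32 for Serpine2, 0.59 for Ace and 1.70 for S1pr3.

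Amph, which encodes a protein of endocytic membrane curvature, stood at 52.1 UPM in transgenic and 12.1 UPM in WT members (2.10). Morrbid, a long noncoding RNA, had 77.3 UPM in transgenic and 12.1 UPM in WT members (2.67). Fgl2, a secreted fibrinogen-like protein, had 72.4 and 21.4 UPM (1.76), and Ndrg1, a stress-responsive gene, had 102 and 42.5 UPM (1.26). Mbd1, which encodes a protein that binds methylated DNA, had 133 UPM in transgenic and 55.0 UPM in WT members (1.27). Mrps6, at a ratio of 1.28, overlaps Slc5a3 on the same strand in GENCODE M21, so counts of the pair may be split and its identity is uncertain. Dnaja4 is described with the chaperones.

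The lowest ratio among these genes was that of Igfbp5, which encodes a binding protein of insulin-like growth factors. It stood at 24.3 UPM in transgenic and 245 UPM in WT members, a log2 ratio of −3.34 (−3.65 to −3.04), with a UMI in 11.4% of transgenic and 52.3% of WT members; 5 cells held 68.3% of its transgenic and 33.6% of its WT UMIs. In the other Pdgfra-positive cells Igfbp5 stood at 264 UPM in the transgenic and 357 UPM in the WT library, a ratio of −0.43. The low level was thus seen in transgenic members and not to that extent in the other transgenic cells, and the difference between the ratios was not tested.

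Zbtb16, a zinc finger factor induced by glucocorticoids, was the most abundant of the 12 lowest. It stood at 363 UPM in transgenic and 1356 UPM in WT members (−1.90, −1.99 to −1.82). The gene was found in nearly all members, and the median cell held 2.80 UMIs of it per 10000 in the transgenic and 12.2 in the WT library. The other Pdgfra-positive cells gave a like ratio, −1.67, from 276 UPM in the transgenic and 875 UPM in the WT library.

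Apoe, the lipoprotein that carries cholesterol and is listed as a marker of committed preadipocytes, stood at 253 UPM in transgenic and 765 UPM in WT members (−1.60, −1.70 to −1.49). The median cell held 0.53 UMIs per 10000 in the transgenic and 4.24 in the WT library. In the other cells Apoe stood at 117 UPM in the transgenic and 236 UPM in the WT library, a ratio of −1.01. Apoe was thus higher in members than in the others within each library and lower in transgenic than in WT cells of both kinds.

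Trhde, an enzyme that inactivates thyrotropin-releasing hormone, stood at 8.17 UPM in transgenic and 74.6 UPM in WT members (−3.19). Ntf3, a neurotrophin, stood at 18.4 UPM in transgenic and 83.6 UPM in WT members (−2.18), with a UMI in 19.5% of transgenic and 56.8% of WT members. Both were higher in members than in the other cells of each library, Ntf3 by 2.05 in the transgenic and 2.20 in the WT library. Kcnn3, a calcium-activated potassium channel, gave a ratio of −2.27, Fgf12 gave −2.12 and Nrxn3, a synaptic adhesion protein, gave −1.58.

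Postn, a matrix protein called periostin, stood at 54.2 UPM in transgenic and 272 UPM in WT members (−2.33). Fam13a, a gene tied to fat distribution in human genetic studies, stood at 11.4 and 65.4 UPM (−2.51), and the imprinted gene Peg3 at 56.5 and 189 UPM (−1.74). Ifitm1, an interferon-induced membrane protein, stood at 10.0 UPM in transgenic and 90.4 UPM in WT members (−3.17). All 12 lowest genes had ratios below 0 among the other Pdgfra-positive cells as well, between −0.43 and −2.78.

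**Figure D4:**
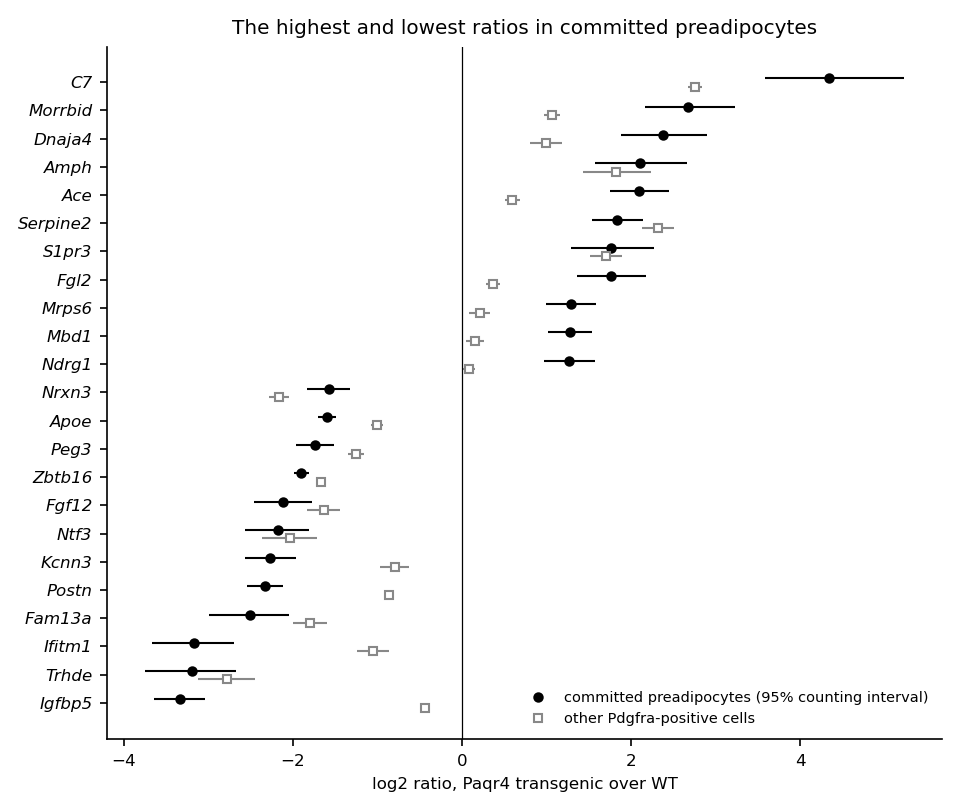
Log2 ratios of Paqr4 transgenic over WT for the named genes with the highest and lowest ratios in committed preadipocytes (filled circles, 95% counting intervals) and in the other Pdgfra-positive cells (open squares). C7 stands at 4.34 in members and 2.75 in the others, and Igfbp5 at −3.34 in members and −0.43 in the others.

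Lists of adipogenesis and lipid handling were then compared between genotypes. Of 11 genes of committed preadipocytes at 10 UPM or more, 0 were 1.5-fold or more higher in transgenic members and 3 (Cd36, Apoe and Mgp) were lower. The median was −0.26 in members and 0.28 in the other cells pooled, whose make-up by score differed between the libraries. Within each other score alone the median ran from −0.31 (Itgbl1 Wnt4 Tgfbi) to 0.01 (Ptn Ackr4). The lower Cd36 rests on few cells, with a UMI in 4.09% of transgenic and 1.52% of WT members. Its ratio turned without 1 WT member called a doublet. Of 22 adipogenic factors at 10 UPM or more, 0 were 1.5-fold or more higher in transgenic members and 1 was lower, where 5.45% of 9244 genes at that level were higher and 6.58% lower (12% in either direction). The lower one was Klf15, a glucocorticoid-induced factor that promotes adipogenesis, at 5.60 UPM in transgenic and 18.2 UPM in WT members (−1.70, −2.47 to −0.97). The median ratio of the list was −0.10, beside −0.01 over the 9244 genes. Cebpa gave 0.05 (−0.58 to 0.69) and Cebpd gave −0.30.

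Of 20 genes of lipid storage and lipolysis 1 was higher and 2 were lower, with a median of 0.13; these counts are near the shares over all genes. Hilpda was the higher one (0.59, 0.01 to 1.18). Ces1d, a carboxylesterase that hydrolyses triglyceride, stood at 49.0 UPM in transgenic and 121 UPM in WT members (−1.31), and Mgll, which completes lipolysis, at 6.07 and 16.8 UPM (−1.47), with 76.6% of its WT UMIs in 5 cells. Of 16 genes of lipid uptake, 1 (Acsl3, 0.81) was higher and 2 (Slc27a1, −1.52, and Cd36) were lower, beside 5.45% and 6.58% of all genes. Cd36 had UMIs in 4.09% of transgenic and 1.52% of WT members, and its ratio was 3.96 without 1 WT member called a doublet. Lpl stood at 1489 UPM in transgenic and 2057 UPM in WT members, a ratio of −0.47 (−0.52 to −0.41), under 1.5-fold.

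Of 15 genes of fatty acid synthesis, 4 were higher in transgenic members and 0 lower, with a median of 0.20. Of all 9244 genes at that level 5.45% were higher and 6.58% lower. Me1, the malic enzyme that supplies NADPH, stood at 58.4 UPM in transgenic and 30.0 UPM in WT members (0.96, 0.60 to 1.33). Elovl6, which elongates fatty acids, stood at 36.2 and 20.4 UPM (0.83), and Scd1 and Acsl3 were the other two. Of 18 genes of cholesterol synthesis 3 were higher and 0 lower, with a median of 0.30 in members and 1.03 in the other Pdgfra-positive cells. The interval of 1 of the 3, Fdft1, included 0 (0.66, −0.02 to 1.38). The WT members stood above the WT others, as with Idi1 at 22.1 against 10.9 UPM, while the transgenic members stood at 27.5 UPM against 31.2 UPM in the transgenic others. The list's median log2 ratio of members over the other cells was 0.05 in the transgenic and 0.80 in the WT library. Among members with a Cxcl14 UMI the genotype median was −0.13.

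**Figure D5:**
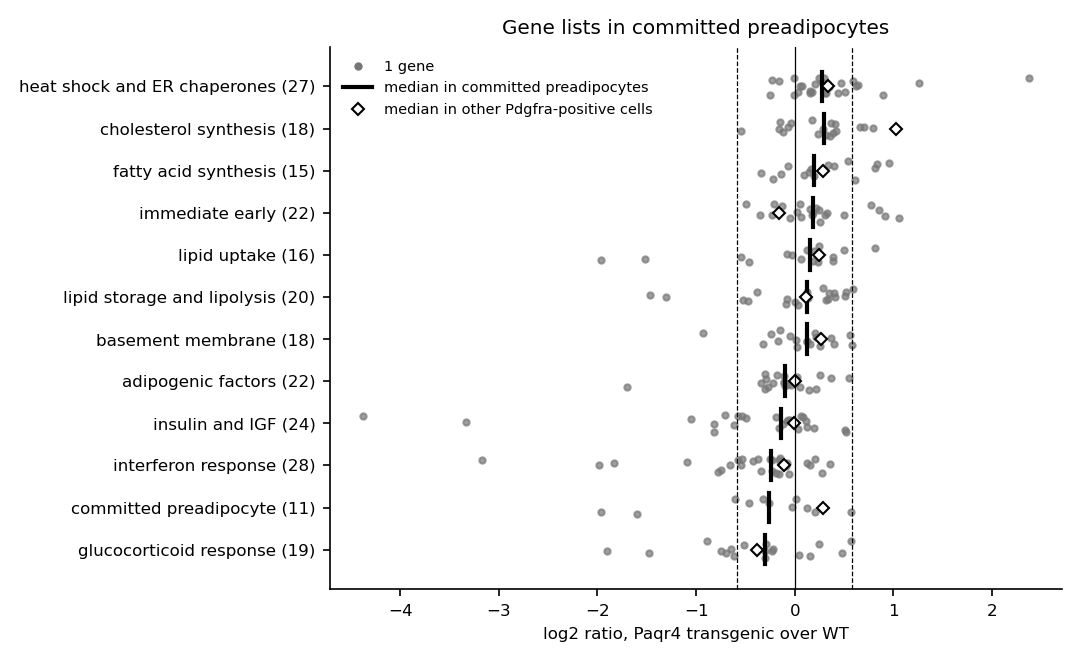
Log2 ratios of Paqr4 transgenic over WT in committed preadipocytes for the genes at 10 UPM or more of 12 lists (points; number of genes in brackets), with the list median in members (bar) and in the other Pdgfra-positive cells (diamond); dashed lines mark 1.5-fold. The medians in members run from 0.30 for cholesterol synthesis to −0.31 for the glucocorticoid response.

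Of 24 genes of the insulin and IGF pathway 0 were higher in transgenic members and 7 lower, against 6.58% of all genes. The median was −0.14, and 8 of the 24 had a ratio above 0. Pik3r1, the regulatory subunit of the kinase that insulin receptors recruit, stood at 213 UPM in transgenic and 443 UPM in WT members (−1.05, −1.18 to −0.93). Irs1, the adaptor below the insulin receptor, stood at 79.1 UPM in transgenic and 139.6 UPM in WT members (−0.82), and Igf1, the growth factor itself, at 223 and 393 UPM (−0.82). In the other Pdgfra-positive cells these ratios were −0.40 for Pik3r1, 0.01 for Irs1 and −0.14 for Igf1. Foxo3, Igfbp4, Igfbp5 and Igfbp3 made up the 7, and Igfbp3 rests on few cells, 5 of which held 56.6% of its WT UMIs.

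Of 28 interferon-response genes, 0 were higher and 7 lower in transgenic members, where 5.45% of all genes were higher and 6.58% lower. Of the 28, 23 had a ratio below 0, and the median was −0.24, beside −0.11 in the other cells pooled. Within each other score alone the median ran from −0.30 (Itgbl1 Wnt4 Tgfbi) to 0.37 (Dpp4 Pi16), the only one above 0. B2m, the light chain of class I molecules, stood at 666 UPM in transgenic and 1116 UPM in WT members (−0.74, −0.82 to −0.67). Irgm1, an interferon-induced GTPase, stood at 28.7 and 61.1 UPM (−1.09), and Ifit1 gave −1.98, with 65.3% of its WT UMIs in 5 cells. Of the 7, Ifit3 had 74.3% of its WT UMIs in 5 cells, and the interval of Irf7 included 0 (−0.65, −1.35 to 0.04). The class I heavy chain genes H2-K1 and H2-D1 gave −0.54 and −0.55, short of 1.5-fold.

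Of 19 genes of the glucocorticoid response 0 were higher and 7 lower, where 5.45% of all genes were higher and 6.58% lower. The median was −0.31 in members and −0.38 in the others. Beside Zbtb16 the 7 lower genes included Per1, a clock gene, at 15.9 UPM in transgenic and 44.3 UPM in WT members (−1.48). Tsc22d3, which encodes the glucocorticoid-induced leucine zipper, was another, at 51.8 and 96.1 UPM (−0.89). Fkbp5, a chaperone of the receptor, stood at 111 and 169.6 UPM (−0.62), and Errfi1, Pdk4 and Ddit4 made up the rest. The receptor gene Nr3c1 gave −0.22, and Hsd11b1 ran the other way, at 0.57.

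Part of the chaperone list was higher in transgenic members. Of 27 genes of heat shock and ER chaperones 6 were higher, against 5.45% of all genes, and 0 lower; 22 had a ratio above 0, and the median was 0.27 in members and 0.34 in the others. Hsp90aa1, the inducible Hsp90, stood at 1803 UPM in transgenic and 968 UPM in WT members (0.90, 0.83 to 0.96). Hspb1, a small heat shock protein, stood at 475 UPM in transgenic and 199 UPM in WT members (1.26, 1.12 to 1.40), with a UMI in 65.9% of transgenic and 37.1% of WT members. Dnaja4, a cochaperone of Hsp70, stood at 70.3 and 13.6 UPM (2.37, 1.88 to 2.90), and Hsph1, an Hsp110 nucleotide exchange factor, at 641 and 410.4 UPM (0.64). Hspa1a and Hspa1b, near-identical copies whose counts may be split, gave 0.59 and 0.62. Heat shock and immediate early genes also respond to warm enzymatic digestion. Of 22 immediate early genes 4 were higher (Egr3, Ier2, Ier3 and Dusp6) and 0 lower, where 5.45% of all genes were higher and 6.58% lower. The median was 0.18 in members and −0.16 in the others. The part of tissue handling in the chaperone and immediate early differences was not tested.

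The heat shock factor binds repeats of the unit GAA, so the promoter windows of these genes (250 bases before to 50 bases after each start, RefSeq, GRCm38.p6) were searched for GAANNTTCNNGAA and its other-strand form TTCNNGAANNTTC, where N is any base. Of the 27 genes 23 had a window, and 3 of those, Hsph1, Hspd1 and Hspe1, held a match; by windows, these were 4 of 29, against 198 of all 32851 (0.603%). The windows of Hspd1 and Hspe1 overlap and share theirs, and Hsph1 has 2 overlapping windows that hold the same match. The 3 windows below are shown because they hold a gene past 1.5-fold with a match, a gene short of it with 2 overlapping matches (Hspe1, 236 UPM in transgenic and 191 UPM in WT members, log2 0.31), and a gene far past it with no match. Capitals mark the matches; the windows are Hsph1 at chr5:149636266-149636565 on the minus strand, Hspe1 at chr1:55087898-55088197 on the plus strand and Hspb1 at chr5:135887669-135887968 on the plus strand.
Hsph1: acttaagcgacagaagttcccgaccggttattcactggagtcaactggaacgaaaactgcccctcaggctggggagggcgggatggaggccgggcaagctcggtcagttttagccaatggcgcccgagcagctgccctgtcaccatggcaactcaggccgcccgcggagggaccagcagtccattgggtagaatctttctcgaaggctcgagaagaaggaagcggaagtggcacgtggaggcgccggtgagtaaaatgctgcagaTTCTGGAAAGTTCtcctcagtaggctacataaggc
Hspe1: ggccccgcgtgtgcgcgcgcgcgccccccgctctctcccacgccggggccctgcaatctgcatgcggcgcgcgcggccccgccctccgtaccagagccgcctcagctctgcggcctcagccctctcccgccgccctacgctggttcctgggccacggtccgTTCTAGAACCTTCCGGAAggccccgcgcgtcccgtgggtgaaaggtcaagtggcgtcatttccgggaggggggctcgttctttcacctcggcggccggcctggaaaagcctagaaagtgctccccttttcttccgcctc
Hspb1: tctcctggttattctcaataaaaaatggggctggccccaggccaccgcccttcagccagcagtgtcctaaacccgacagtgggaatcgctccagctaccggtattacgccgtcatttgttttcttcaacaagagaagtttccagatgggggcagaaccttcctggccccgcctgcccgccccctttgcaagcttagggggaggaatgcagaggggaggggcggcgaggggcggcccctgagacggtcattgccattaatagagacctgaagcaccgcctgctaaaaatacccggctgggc
The match in Hsph1 starts 15 bases past the annotated start of the window shown and 36 bases past that of its other window. A window without a match says only that these letters are not in it, and the 3 windows were picked by their ratios and matches, so they show no relation between ratios and matches.

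Secreted factors went both ways. Of 21 chemokines and cytokines 2 were higher and 5 lower in transgenic members, where 5.45% of all genes were higher and 6.58% lower. Ccl7, which attracts monocytes, stood at 363 UPM in transgenic and 211 UPM in WT members (0.78), whereas Ccl2 stood at 135 and 209 UPM (−0.63). Both rest on few cells: 5 cells held 53.5% of the WT UMIs of Ccl7 and 66.0% of those of Ccl2. In transgenic members 5 cells held 34.2% and 41.7%. Cxcl12, spread over 87.7% of transgenic and 97.0% of WT members, stood at 165 and 319 UPM (−0.95). Of 29 genes of fibrillar collagen and matrix 2 were higher and 3 lower, which is near the shares over all genes. Lum, a collagen-binding proteoglycan, stood at 455 UPM in transgenic and 1108 UPM in WT members (−1.28), and Vcan, a large aggregating proteoglycan, at 390.3 and 196 UPM (1.00). The basement membrane genes that stood out in members differed little: 0 of 18 were higher and 1, Egflam, was lower (−0.93), with a median of 0.13.

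Ceramide and sphingolipid metabolism is the pathway Paqr4 has been linked to. Smpd3, a neutral sphingomyelinase that makes ceramide, stood at 141 UPM in transgenic and 75.7 UPM in WT members (0.90), while the other Pdgfra-positive cells held 149 UPM in the transgenic and 314 UPM in the WT library (−1.07). The ratios thus pointed opposite ways in members and other cells, a difference that was not tested. Ugcg, which turns ceramide into glucosylceramide, stood at 22.2 UPM in transgenic and 38.9 UPM in WT members (−0.81), and S1pr3 is described above. Of the PAQR family 5 genes reached 10 UPM; the adiponectin receptor genes Adipor1 and Adipor2 gave 0.03 and −0.11, and Mmd gave 0.78 (0.03 to 1.58).

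Members with and without Cxcl14 differed in more than that gene. A Cxcl14 UMI was present in 99 transgenic and 47 WT members and absent in 121 and 85, at median depths of 19542 and 20329 UMIs with it and 19246 and 21876 UMIs without it. The split was made after the values were seen. Lower Pparg, Plin2 and G0s2 in cells with Cxcl14 follow from the rule, which lets a cell in on fewer of them. Robo2, a receptor of Slit guidance proteins, stood at 118 UPM with and 14.5 UPM without Cxcl14 in transgenic members, and at 299.95 and 103 UPM in WT members. Hsd11b1 stood at 348 and 187 UPM in transgenic and at 304 and 107 UPM in WT members, and Hpgd, which inactivates prostaglandins, Kcnk2, Ogfrl1 and Col6a6 were also higher with Cxcl14 in both libraries. Fn1, fibronectin, stood at 277 UPM with and 685 UPM without Cxcl14 in transgenic members, and at 189 and 801 UPM in WT members. Sntg1, Opcml, Rgs6, Cadm3, Has1, Postn and Vegfa were likewise lower with Cxcl14. The ratio of Igfbp5 between genotypes was −4.44 with Cxcl14 and −2.95 without it, and that of Zbtb16 was −1.98 and −1.84. The ratio of Hspb1 was 3.55 with Cxcl14 and 0.99 without it.

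Haemoglobin transcripts were carried by few members. The list of 5 red cell genes summed to 5893 UPM in transgenic and 1102 UPM in WT members, and 5 cells held 90.5% to 95.2% of the UMIs of each of the 5 genes in the transgenic library. Without the cells with over 1% haemoglobin UMIs, 4 transgenic and 1 WT among the members, Hbb-bt gave −0.59 and Hba-a1 gave −0.17. Leaving them out turned none of the named highest and lowest ratios.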

How the data were processed

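Droplet 3′ single-cell RNA-seq was analysed for 1 library per genotype. The values are raw counts of UMIs per gene and barcode that the authors deposited unfiltered; per the submitters' processing notes they were made with Cell Ranger 7.0.0 on mm10, while the file headers name version 4. Barcodes with at least 1000 UMIs, 500 genes and at most 10% mitochondrial UMIs were kept, which gave 1525 transgenic and 1329 WT cells. Each of 6 scores was the mean, over 4 genes, of log1p UMIs per 10000, standardised over Pdgfra-positive cells of both libraries. Scrublet (scanpy 1.11.5) called 13 transgenic cells (0.852%) and 3 WT cells (0.226%) as doublets, of which 0 transgenic and 1 WT were members; they were kept, and the share in WT is too low to show that the caller worked.

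UMIs were summed over members per library. Ratios carry exact conditional binomial intervals, shares carry Clopper-Pearson intervals at 95%, and both leave out variation between cells and mice. A count of 0 was set against a floor of 3 UMIs, worth 0.700 UPM in transgenic and 1.07 UPM in WT members. A call is 1.5-fold (log2 0.58) with 50 UPM for genes or 10 UPM for list genes in at least 1 library. Named between genotypes were the 12 highest and 12 lowest ratios at 50 UPM with a UMI in 5% of members and under 50% of UMIs in 5 cells of the higher library, without predicted, mitochondrial, ribosomal, haemoglobin, immunoglobulin, Y-linked and X-inactivation genes. A few items that these rules cover are not reported here. Against the other cells the 20 highest and 12 lowest by the smaller of both libraries' differences were considered, and list genes by their ratio or level; genes of the Cxcl14 split were chosen after their values were seen. Members and lists were chosen with earlier results of these data known. Gene positions and overlaps came from GENCODE M21, promoter sequences from RefSeq. Intervals were computed with scipy 1.17.1 in Python 3.11.15 (tables with pandas 2.3.3, arrays with numpy 2.4.6), figures were drawn with matplotlib 3.10.9, and the scripts were tested on simulated data. Alternatives covered thresholds, standardisation, depth, doublets, floors, weights, scaling and single cells.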

Additional observations from a re-analysis of the deposited data

Results flagged for a closer look

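For 5 genes the difference between members and the other Pdgfra-positive cells pointed opposite ways in the libraries; the difference between the libraries was not tested. Ifitm1, an interferon-induced membrane protein, was lower in members of the transgenic library (log2 −0.59, 10.0 against 15.1 UPM) and higher in members of the WT library (1.53, 90.4 against 31.3 UPM). Igfbp3, a binding protein of insulin-like growth factors, gave −0.61 in the transgenic library (6.30 against 9.65 UPM) and 1.34 in the WT library (131 against 51.5 UPM), and 5 cells held 56.6% of its UMIs in WT members. Fbn2, which encodes fibrillin 2 and belongs to another of the scores, gave −1.59 in the transgenic library (5.37 against 16.2 UPM) and 0.63 in the WT library (18.2 against 11.7 UPM), and 5 cells held 69.6% of its UMIs in transgenic and 64.7% in WT members. Hbb-bt, a beta globin gene, gave 0.79 in the transgenic library (710 against 409 UPM) and −3.50 in the WT library (63.9 against 722 UPM). Alas2, the red cell enzyme of haem synthesis, gave 0.59 in the transgenic library and −2.50 in the WT library. In transgenic members 5 cells held 95.2% of the Hbb-bt UMIs and 94.6% of those of Alas2.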

How the results depend on the processing

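The share of members was 9.73% in transgenic and 6.87% in WT at a score threshold of 1.0, 21.8% and 16.2% at 0, 14.2% and 10.1% with cells thinned to 5000 UMIs, and 18.7% and 12.9% without Cxcl14 in the score. The ratio of the shares was 1.11 with scores standardised within each library and 1.34 to 1.67 under the other settings. Genes 1.5-fold or more higher and lower in transgenic members numbered 504 and 608 of 9244 at a floor of 10 UPM and 77 and 81 at 100 UPM. They numbered 299 and 274 with members thinned to 5000 UMIs, and 289 and 324 in members with a Cxcl14 UMI. The number of genes compared changes with the setting, and fewer cells or UMIs add counting error. A larger count is therefore not a larger difference between genotypes. In members without one 236 were higher and 176 lower, and without the 5 cells richest in each gene 227 were higher and 82 lower; 5 cells are a larger share of 132 WT than of 220 transgenic members. Against cells assigned to another score 216 genes were higher and 251 lower in members. The splits by Cxcl14 and the removal of cells over 1% haemoglobin were chosen after seeing the data.

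Of 1062 gene values under alternatives whose main ratio was 1.5-fold or more, 948 stayed so, 89 kept the direction under 1.5-fold and 25 turned; of 269 list medians 262 kept their sign. Turned values at threshold 1.0 were Cd36 3.08, Mgll 0.38, Col8a1 −0.20, Has2 0.074, Hbb-bt −0.52, Alas2 −2.94, Hba-a1 −0.11 and Hba-a2 −0.13, and at threshold 0 Cd36 0.29 and Mgll 0.16. Cd36 was 3.96 without doublets. Without cells over 1% haemoglobin Hbb-bt was −0.59, Alas2 −0.60 and Hba-a1 and Hba-a2 −0.17 each, and without the 5 richest cells these globins were −0.52, −0.19 and −0.18. With a Cxcl14 UMI Cd36 was 0.22, Fdft1 −0.051, Has2 0.36, Ccn2 −0.71, Id1 −0.14, Bambi 0.78 and Rspo1 0.18, and the medians were −0.045 for basement membrane and −0.61 for the interferon response; that of the glucocorticoid response was −0.42 at threshold 1.0. Where a value turned the cause was not tested. No paired analysis was possible because each genotype had 1 library. Depth limits genes near the floors, and 1 library per genotype limits every ratio.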
